A study of Danio rerio with 8 samples.

Results

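The loci described here are the long non-coding RNA (lncRNA) loci of zebrafish chromosome 4, which number 63 of the 1014 loci in the zebrafish catalogue deposited with the series, or 6.21%. Every locus whose records name chromosome 4 was taken, and unplaced scaffolds were left aside. The study itself sequenced ribosome footprints, the RNA pieces shielded by ribosomes from nuclease, in pools of whole wild-type TL/AB embryos, with 1 library for each of 8 stages. The stages were 2-4 cell, 256 cell and 1K cell, then dome and shield, then bud, and last 28 hours and 5 days after fertilization. Footprint values of those libraries were not analysed here, so what follows concerns transcript models only and says nothing about expression or translation. That the loci are non-coding rests on the deposited description, since the table carries no measure of coding capacity. The 63 loci held 88 transcripts and 219 exon records on the Zv9 build, and the longest spliced transcript stood for its locus. Models named linc- and models named Zv9_ come from separate earlier studies, and the Zv9_ name is also carried by other developmental transcripts of the same loci, which cannot be told apart from the lncRNAs here. A linc- model was present at 24 of the 63 loci and a Zv9_ model at 41, the most of any chromosome (12 to 35 on the others).

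Chromosome 4 is an unusual zebrafish chromosome. Its long arm is known for late-replicating heterochromatin, many repeats, few conserved protein-coding genes, large families of immune receptor and zinc finger genes, and copies of small nuclear RNA genes. Wild zebrafish carry a sex-linked region there that laboratory strains are reported to have lost. An lncRNA is a transcript without a long open reading frame, often spliced and often low in abundance, and some act on neighbouring genes or as scaffolds for proteins.

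The first locus, XLOC_012003, began at 2590, and the last, XLOC_012308, ended at 62084360. Counted by first base in fixed bins of 5 Mb, the opening 4 bins held 6, 9, 8 and 5 loci. The next bin, from 20 to 25 Mb, held 2 loci, XLOC_012210 (722 nt in 2 exons) and XLOC_011866, and the bin around the 28 Mb boundary held 6. The 5 bins from 30 to 55 Mb held 3, 3, 3, 2 and 1. The last bins, from 55 Mb and from 60 Mb, held 8 and 7, the latter being cut short by the end of the chromosome. Loci were thus more frequent toward both ends of the chromosome than between 30 and 55 Mb. Over the 243 whole bins of the other 24 chromosomes the median was 3 loci, with quartiles of 2 and 5 and a range of 0 to 11. A bin with at least 9 loci, like that from 5 to 10 Mb, occurred 7 times among those 243, and a bin with at most 1, like that from 50 to 55 Mb, occurred 47 times. At most 3 loci, as in each bin from 30 to 55 Mb, were held by 132 of the 243.

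**Figure D1:**
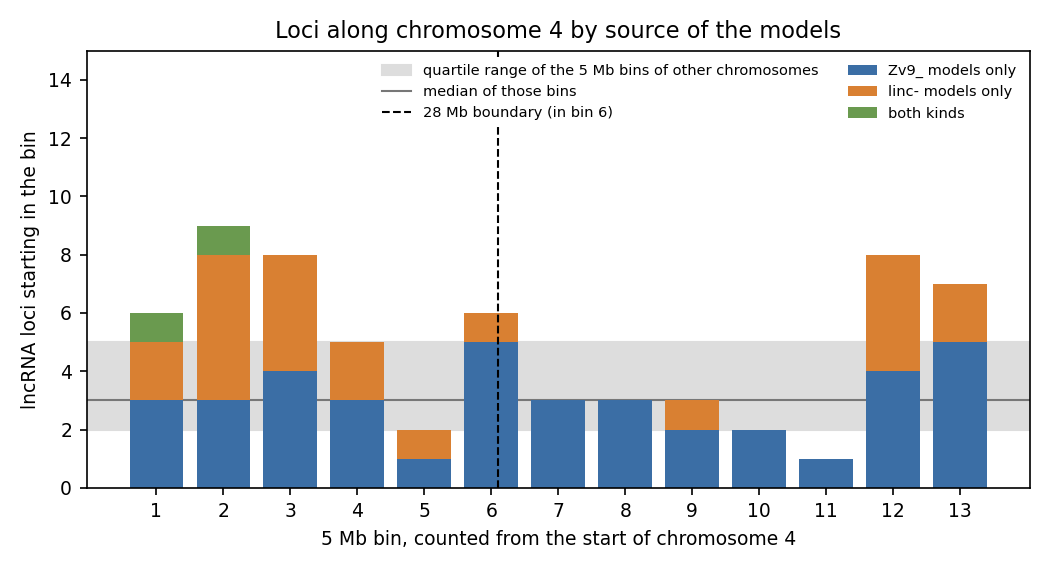
Number of lncRNA loci starting in each 5 Mb bin of chromosome 4, split by the source of their models, against the bins of the other chromosomes (line, median of 3 loci; band, quartiles of 2 and 5). The 5 bins from 30 to 55 Mb hold 12 loci, 1 of them with a linc- model.

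Starts below 28 Mb were found for 33 loci and starts above it for 30. The nearest starts on either side were XLOC_012242 at 27932750, a 2-exon Zv9_ model of 2684 nt, and XLOC_011940 at 28394564, a 2-exon Zv9_ model of 1641 nt, and any boundary between these starts gives the same split. Density was 1.18 loci per Mb below and 0.880 above. The sources were unevenly spread. Loci with a linc- model numbered 17 below and 7 above (0.607 and 0.205 per Mb), whereas loci with a Zv9_ model numbered 18 and 23 (0.643 and 0.675 per Mb). The linc- share was 51.5% below (exact binomial 95% interval 33.5 to 69.2) and 23.3% above (9.93 to 42.3). Of the 9 measures compared between the sides, this was the 1 whose interval of the difference left out 0 (-28.2 percentage points, -50.4 to -2.07). The interval reached 0 with the split moved to 30 Mb (-21.3 points, -44.1 to 5.11) and with loci of both kinds set aside (-22.1 points, -44.7 to 3.57). Loci are entries of a catalogue and not replicates, so no p-value is given, and the intervals treat loci as independent draws.

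A lopsided source was seen on other chromosomes too. With each of the 24 split at the same 45.1% of its length, 3 had a larger absolute difference in linc- share between the parts than the 28.2 points of chromosome 4 (the signed difference, upper minus lower, had a median of -9.29 points over the others). The share of linc- loci lying past that point was 29.2% on chromosome 4, lower than on 23 of the others (range 20 to 80%). For Zv9_ loci it was 56.1%, near the median of 57.4% over the others.

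Within the upper side, a pair of stretches differed, divided at 55 Mb after the bins had been seen. From 28 to 55 Mb there were 15 loci, or 0.556 per Mb, of which 1 had a linc- model. From 55 Mb to the last locus end there were also 15, or 2.12 per Mb, of which 6 had one. Median spliced length was 510 nt in the first stretch (95% interval 257 to 1554) and 1537 nt in the second (1051 to 2159), and these intervals overlap. The 12 loci between 30 and 55 Mb were matched or undercut in 24 of 147 windows of 25 Mb on the other chromosomes, windows that share bins, and those 24 lay on 12 chromosomes. A single linc- locus or fewer in 25 Mb was found in 2 of the 147, both on the same chromosome. At the other extreme, the final 7.08 Mb held 15 loci, more than the final 7.08 Mb of any other chromosome (median 6, highest 12). Both stretches follow the cut at 55 Mb, which was set after the bins had been seen. These comparisons therefore do not measure how unusual the counts are.

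The sparse stretch can be listed in full. XLOC_012251 at 32688609 had a 2-exon model of 510 nt. XLOC_011951 and XLOC_012254 followed, with spliced lengths of 284 and 170 nt. XLOC_012258, XLOC_011952 and XLOC_012260 began between 37159831 and 38291373 and measured 1020, 257 and 459 nt. These 6 were all Zv9_ models and, apart from the 3-exon XLOC_012258, had 2 exons each. Further along lay XLOC_011955 with 328 nt in 3 exons, the last of them only 40 nt long, and XLOC_011957 with 221 nt in 3 exons over 705 bp. XLOC_012262 at 41728931, the linc- locus of the stretch, measured 1554 nt in 3 exons over 3356 bp. XLOC_011958 measured 1706 nt, XLOC_012264 measured 216 nt, and XLOC_011965 at 52972871 measured 595 nt. The widest interval without a locus, 6.32 Mb between XLOC_012264 and XLOC_011965, was exceeded on 13 of the other 24 chromosomes, whose widest gaps had a median of 6501063.5 bp. Gaps of 4.23 Mb after XLOC_012245 and 3.82 Mb after XLOC_011866 came next.

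Chromosome 4 loci were compact. Their median span, from the first to the last base of a locus, was 3356 bp (95% interval 2159 to 4363) against 7267 bp (6444 to 8142) over the 929 loci of the other chromosomes, a difference of -3911 bp (-5394 to -2610). It was the lowest median of the 25 chromosomes, the others ranging from 4848 to 12616 bp. The median intron, taken first within each multi-exon model and then over loci, was likewise the shortest of the 25, at 1054 bp (651 to 1790) against 2554 bp (2332 to 2857), with the other chromosomes between 1486 and 5588.5 bp. Both sides of the boundary were compact, with median spans of 3492 bp below and 3097.5 bp above. The upper side alone had a wide interval that reached the level of the other chromosomes (1828 to 8563 bp). Leaving out loci of 100 kb or more, a step added after the spans were seen, gave a difference from the other chromosomes of -3556 bp (-4836 to -2351).

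The sources were also taken apart. Among linc- models the median span was 3424 bp on chromosome 4 and 6020 bp elsewhere (difference -2596 bp, -4663 to -1490), and 1 chromosome had a lower median. Their median intron differed from that elsewhere by -549.5 bp (-1364 to -65.5), and 7 of the 24 other chromosomes had a lower one, so the lowest rank did not hold among linc- models. Among Zv9_ models the median span was 3335 bp against 8484 bp, the lowest of the 25, but the interval of that difference was -7836 to 2142 bp. The median intron of the Zv9_ models was 899 bp against 3824 bp, also the lowest of the 25, with an interval of the difference from -3974 to 959 bp.

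**Figure D2:**
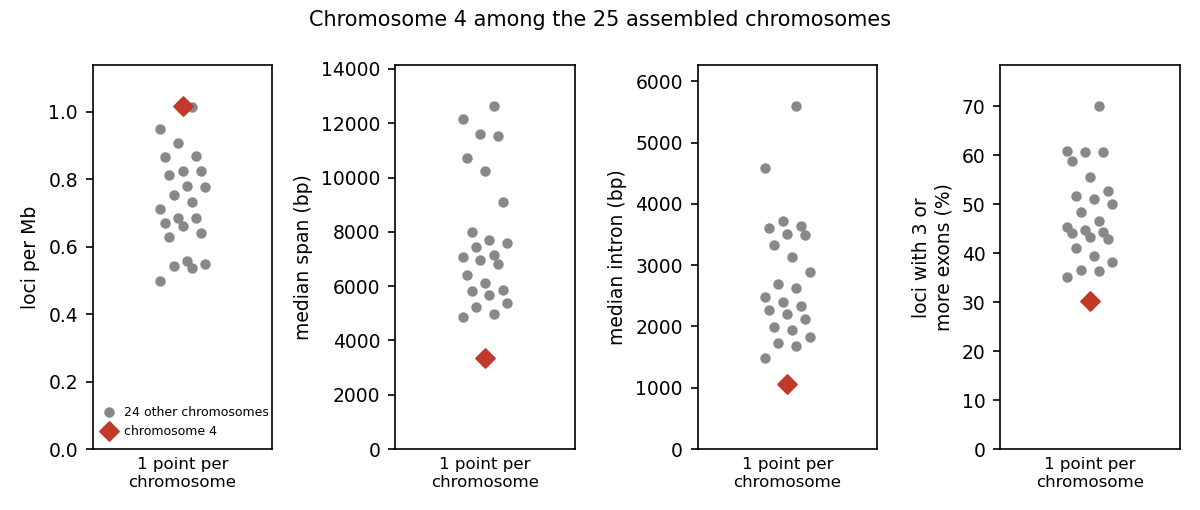
Loci per Mb, median span, median intron and share of loci with 3 or more exons for each assembled chromosome (grey points) and chromosome 4 (red diamond). Chromosome 4 has the lowest median span (3356 bp), the lowest median intron (1054 bp) and the lowest share with 3 or more exons (30.2%), and its 1.015 loci per Mb lie just above the next value of 1.013.

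Models on chromosome 4 were also simple. A model of 3 or more exons stood for 19 of 63 loci, or 30.2% (19.2 to 43.0), against 443 of 929, or 47.7% (44.4 to 51.0), elsewhere. This was the lowest share of the 25 chromosomes, the others ranging from 35.1 to 70%. Models of 2 exons stood for 34 loci, or 54.0% (40.9 to 66.6), against 39.8% elsewhere, a share exceeded on 1 chromosome. The mean exon number was 2.29 ± 1.02 (SD, n = 63 loci) against 3.11 ± 2.32 (n = 929). Among Zv9_ models 78.0% had 2 exons on chromosome 4 and 56.9% elsewhere, a difference of 21.1 points (4.92 to 33.3). Among linc- models 50% had 3 or more exons on chromosome 4 against 53.1% elsewhere, an interval of the difference from -24.5 to 18.4 points. Among the longest models of the chromosome 4 loci, the most exons were the 7 of XLOC_011887, a linc- locus at 27674698 with 2038 nt over 7176 bp, and the next, XLOC_012280, had 5. The longest models of XLOC_011783, XLOC_012288 and XLOC_012308 had 4 each. Other chromosomes reached 25.

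Spliced length, by contrast, was ordinary. The median was 1122 nt (852 to 1482) against 1171 nt (1104 to 1241) elsewhere, and 15 chromosomes had a higher median. Below and above 28 Mb the medians were 1122 and 1125.5 nt, a difference of 3.5 nt with an interval of -740 to 597. The linc- models of chromosome 4 had a median of 1375.5 nt against 1748 nt elsewhere (difference -372.5 nt, -808 to 165), and the Zv9_ models 903 nt against 881 nt. The longest model was that of XLOC_012290, 4990 nt in 2 exons of 2733 and 2257 nt parted by an intron of 237 bp. XLOC_011787, a single exon of 4363 nt, and XLOC_011866, a single exon of 3492 nt, came next, both linc- models below the boundary. XLOC_012245 and XLOC_012273, Zv9_ models above it, measured 3355 and 3332 nt, and their last exons alone took 3126 and 2961 nt. None reached the 11211 nt of the longest model on the other chromosomes.

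**Figure D3:**
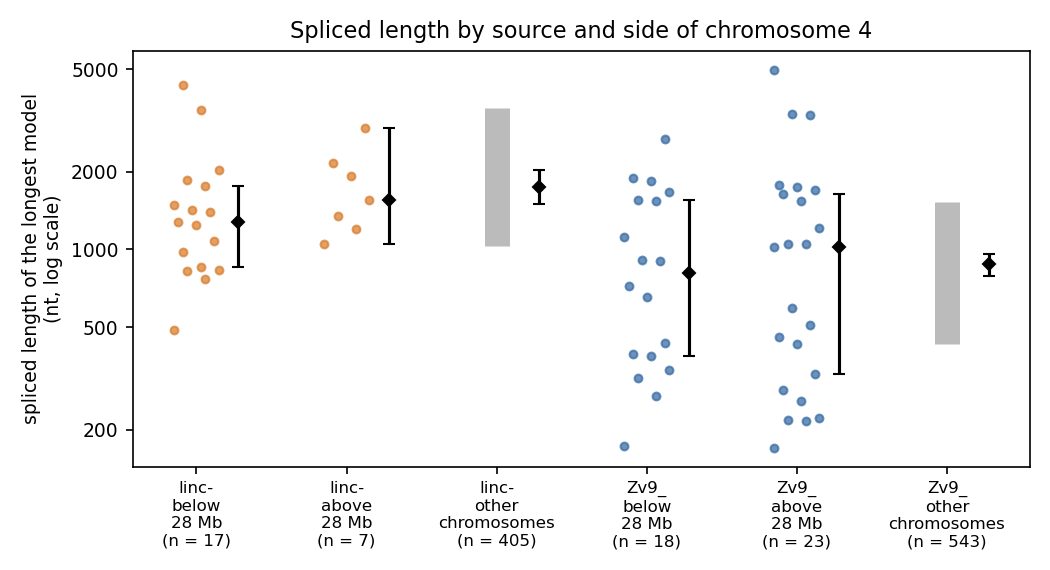
Spliced length of the longest model of each source at a locus (coloured points, log axis), below and above 28 Mb, with the median and its 95% interval (black diamonds and bars) and the quartile range of the other chromosomes (grey bars). The linc- medians are 1282 and 1554 nt and the Zv9_ medians 812.5 and 1020 nt, with overlapping intervals on both sides of the boundary.

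The upper side combined very short with very long introns. Of the 41 introns in its longest models, 19 were under 500 bp, or 46.3%, 14 were from 500 bp to 10 kb, 3 were from 10 to 100 kb and 5 were longer still. Below the boundary the corresponding counts among 40 introns were 13, 23, 4 and 0, with 32.5% under 500 bp. Over the 1956 introns of the other chromosomes, 28.5% were under 500 bp and 1.69% were of 100 kb or more. These limits were chosen after the introns had been seen. Introns of a model were counted apart, and no interval was computed for these shares. The median intron over loci, above minus below, differed by -339.8 bp, with an interval of -1668 to 3535 bp that took in 0. The share of each span taken up by exons was also compared. Exons of the longest model were set against the span of all transcripts, so further transcripts can lower the share. More than 1 transcript was listed at 4 of 27 multi-exon loci above, 7 of 26 below and 204 of 813 elsewhere. Among the 22 multi-exon loci above 28 Mb that spanned under 100 kb, exons filled a median of 70.5% of the span, and 12 were at least 50% exon. The median was 25.2% over the 26 multi-exon loci below, of which 8 were at least 50% exon, and 16.3% on the other chromosomes, where 18.2% of 765 loci were. The 100 kb filter set aside 5 multi-exon loci above, each with at most 0.502% exon, and none below. The median over all 27 multi-exon loci above was therefore lower than 70.5%. At least 50% exon was found at 12 of these 27, against 8 of the 26 below. No interval was computed for these medians. The shortest intron of the longest models was that of XLOC_011998, near the end of the chromosome, whose exons of 60 and 158 nt were parted by 59 bp.

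Very wide loci, of 100 kb or more, numbered 5 above the boundary and 0 of 33 below it. The share below could reach 9.09% by 3 counts and 10.6% by the exact interval. The 100 kb limit was chosen after the spans had been seen. XLOC_011970 at 57625528 spanned 355042 bp, the second widest of the catalogue, with exons of 1003 and 781 nt on either side of an intron of 353258 bp. XLOC_011951 at 33831730 spanned 251316 bp with exons of 54 and 230 nt. XLOC_012254 at 34926113 spanned 233467 bp with exons of 79 and 91 nt. XLOC_012264 at 46438972 spanned 212337 bp with exons of 171 and 45 nt, and XLOC_012274 at 57052218 spanned 200044 bp with exons of 31 and 397 nt. All were Zv9_ loci with 1 transcript of 2 exons, and they held 0.0728 to 0.502% exon. A single junction thus defines each of these loci, and the reads behind the junctions were not analysed here. The share of wide loci above 28 Mb was 16.7% (5.64 to 34.7) against 5.27% (3.93 to 6.91) on the other chromosomes, intervals that overlap. All 49 wide loci elsewhere likewise had a Zv9_ model. Measured on their linc- models alone, 0 of the 405 loci with such a model elsewhere were wide, the widest reaching 86395 bp. A locus with a linc- model can still be wide through its other transcripts. Among Zv9_ models alone the share was 21.7% of 23 loci above 28 Mb (7.46 to 43.7). On the other chromosomes it was 9.02% of 543 (6.75 to 11.75), and these intervals overlap too. Neither overlap shows that the shares are alike, and no interval of either difference was computed. Chromosome 14 had 7 wide loci, and 3 chromosomes had 5 like chromosome 4. On the other chromosomes 12 of 49 wide loci were single Zv9_ transcripts of 2 exons. The median spliced length was 284 nt (range 170 to 1784) over the 5 wide loci of chromosome 4 and 1216 nt (166 to 4336) over the 49 elsewhere. The kinds of model were not matched in these medians, and no interval was computed. The 5 wide loci of chromosome 4 made up 1252206 of the 1444030 bp that loci covered above the boundary, or 86.7%. Exons covered 0.121% of the upper side and 0.159% of the lower. XLOC_011991 (95648 bp) and, below the boundary, XLOC_011695 (83061 bp) lay just under the limit.

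**Figure D4:**
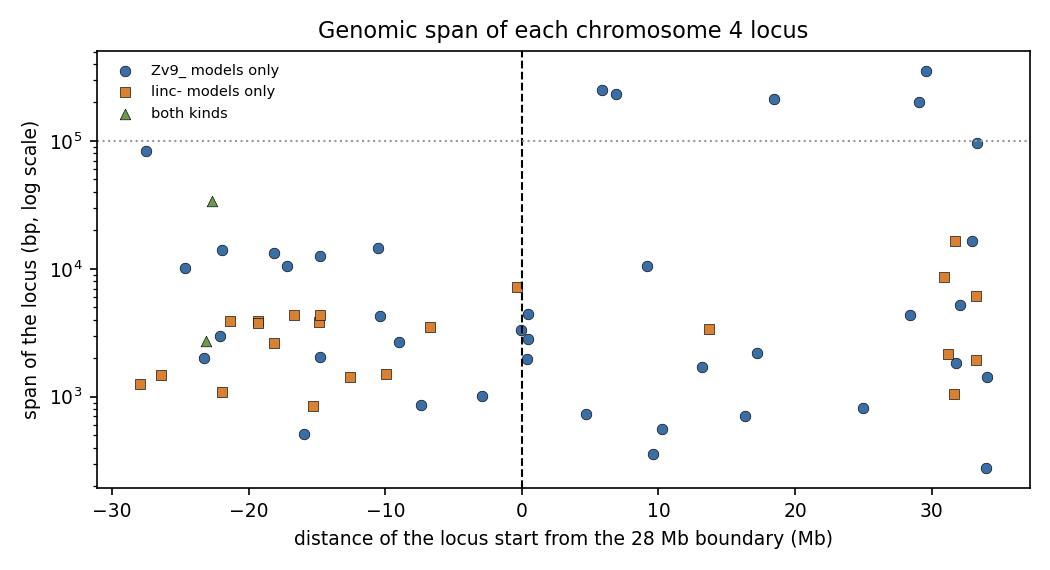
Span of each of the 63 loci (log axis) by the distance of its start from the 28 Mb boundary (dashed line), with symbols for the source of the models and a dotted line at 100 kb. The 5 loci over the dotted line are Zv9_ models above the boundary, while the widest below spans 83061 bp.

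Last exons had the longest median. In the 19 models of 3 or more exons the median last exon measured 762 nt, the first 133 nt and the internal ones 102 nt. The last exon was longer than the internal exons in 18 of 19 and longer than the first in 16, against 92.3% and 80.8% of 443 models elsewhere. The model whose last exon was not the longer of the last and internal was that of XLOC_011957 above 28 Mb, with exons of 65, 102 and 54 nt. In 2-exon models the last exon was the longer in 23 of 34, or 67.6% (49.5 to 82.6), against 69.2% elsewhere. Single-exon models stood for 10 loci, 7 below and 3 above, or 15.9% (7.88 to 27.3) against 12.5% elsewhere. All 10 were linc- models, and among Zv9_ models 0 of 543 loci elsewhere were single-exon too. Among linc- models the share was 41.7% on chromosome 4 and 29.1% elsewhere, with an interval of the difference from -7.58 to 34.7 points.

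The linc- identifiers carry gene names, either established symbols or provisional ones. Below 28 Mb, 10 of 17 linc- loci bore an established symbol. At the start of the chromosome XLOC_012003 was named after msgn1, a transcription factor of the paraxial mesoderm, followed by XLOC_011701 after arid2, a subunit of a chromatin remodelling complex, and XLOC_011739 after foxp2, a forkhead transcription factor of the developing brain. XLOC_011746 bore the name of tnnt2e, a troponin T gene, XLOC_012086 that of stab2, a scavenger receptor of endothelial cells, XLOC_012188 that of impdh1b, an enzyme of guanine nucleotide synthesis, and XLOC_011866 that of guca1a, an activator of guanylate cyclase in photoreceptors. Above 28 Mb all 7 linc- loci bore provisional clone or locus names (exact interval of the share 59.0 to 100%), against 41.2% below (18.4 to 67.1) and 34.1% (29.5 to 38.9) elsewhere. The intervals above and below overlap, which does not show that the shares are alike, and none was computed for the difference. The 7 loci were XLOC_012262 (zgc:174696), XLOC_012280 (loc100332930), XLOC_011975 (loc100001765), XLOC_012287 and XLOC_012288 (both loc100331680), XLOC_012299 (zgc:92791) and XLOC_012302 (zgc:162948). The sources used here do not state how a locus relates to the gene in its name. Names were looked up in RefSeq's annotation of a later assembly (GRCz12tu). They were found for 3 of the 7 loci above, 15 of the 17 below and 323 of the 405 elsewhere. On chromosome 4 the names not found were those beginning loc, which occurred on both sides, and si:dkeyp-81f3.3 below. The name zgc:92791 now stands for psmb10, which encodes a subunit of the immunoproteasome, and among provisional names below, zgc:101896 stands for tprkb and zgc:63566 for cnot4b. None of the 24 linc- loci of chromosome 4 was named after a zinc finger or NLR gene, families counted by the start of the symbol. Among the 405 linc- loci elsewhere 1 name was that of a zinc finger gene and 0 that of an NLR gene. Whether provisional names stand for members of either family was not tested.

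Strand was close to even on the chromosome as a whole, with 30 of 63 loci on the plus strand, or 47.6% (34.9 to 60.6), against 52.1% elsewhere. The share was 57.6% below and 36.7% above, a difference of -20.9 points whose interval, -44.7 to 5.86, took in 0. With every transcript counted in place of every locus it was -25.1 points, with an interval of -45.5 to -2.14 that left out 0, although transcripts of a locus share its strand. Loci from XLOC_012287 to XLOC_012302, between 59660483 and 61278332, formed a run of 7 on the minus strand. A run as long or longer was found on 5 of the other 24 chromosomes, where the longest runs numbered 3 to 11 loci. A run of 6 on the plus strand led from XLOC_011738 to XLOC_011766.

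More than 1 transcript was listed at 14 loci, or 22.2% (12.7 to 34.5), against 232 of 929 loci elsewhere, 10 of them below the boundary and 4 above. Both sources met at 2 loci, below the boundary. XLOC_012051 had the most transcripts, 6, over 33838 bp. A pair of Zv9_ transcripts lay between 5294995 and 5297432, while another Zv9_ pair and 1 linc- transcript lay between 5325721 and 5328832. The linc- transcript linc-si:dkey-14d8.21_1 reached both groups, with its last exon ending at 5295763 and the exon before it beginning at 5327324. XLOC_011718 held 4 transcripts, 2 linc- ones of 598 and 978 nt and 2 Zv9_ ones of 1670 and 1634 nt. No RefSeq transcript was listed on chromosome 4, while 16 of 929 loci elsewhere held one, or 1.72%. The share on chromosome 4 could reach 4.76% of loci by 3 counts and 5.69% by the exact interval.

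Close neighbours, within 10 kb or overlapping, were found for 8 of 63 loci, or 12.7% (5.64 to 23.5), against 9.26% (7.47 to 11.3) elsewhere. They formed 4 pairs. XLOC_012129 and XLOC_011805 overlapped on opposite strands, the latter, of 2060 bp, lying wholly inside the former. XLOC_012244 and XLOC_012245 lay 388 bp apart on the minus strand just above the boundary. XLOC_012086 and XLOC_012087 lay 2232 bp apart, also on the minus strand, and XLOC_011765 and XLOC_011766 lay 3600 bp apart on the plus strand.

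That last pair had the same exon structure. XLOC_011765, from 8685691 to 8689587, carried the name zgc:85676 (tmem243b in the RefSeq table) and XLOC_011766, from 8693188 to 8696939, that of parp12b, a gene of the ADP-ribosyltransferase family. Each locus had 3 linc- transcripts. The first transcript of both had exons of 241, 147, 159 and 236 nt, and the second had exons of 241, 147, 159 and 162 nt. The third had exons of 214, 147 and 472 nt at XLOC_011765 and of 214, 147 and 466 nt at XLOC_011766. Introns were alike but not all equal, measuring 1004, 1649 and 461 bp in one locus and 850, 1658 and 461 bp in the other. Among all 731 zebrafish models of 3 or more exons, a full chain of equal exon lengths at different loci occurred at this 1 pair of loci. The search was made after the structures had been seen.

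**Figure D5:**
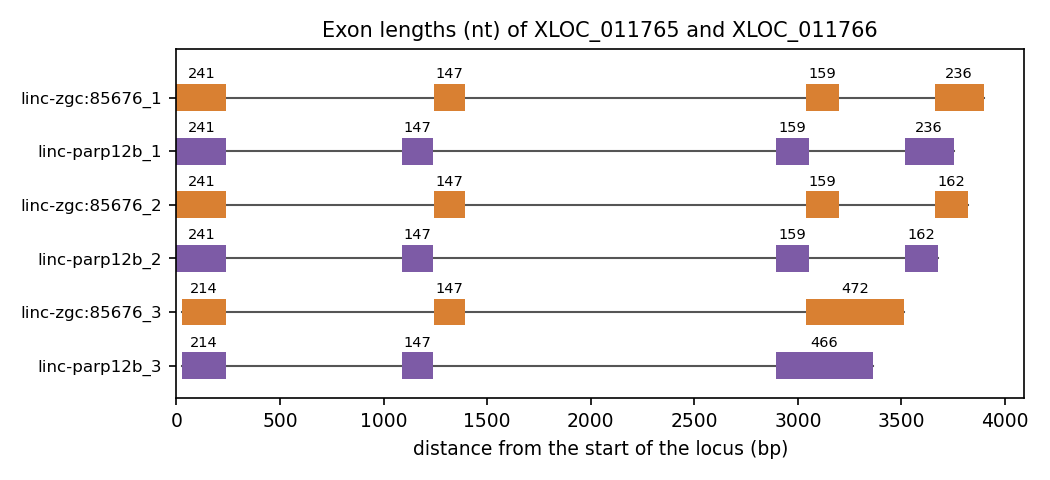
Exons (boxes, length in nt above each) and introns (lines) of the 3 transcripts of XLOC_011765 (linc-zgc:85676, orange) and XLOC_011766 (linc-parp12b, purple), by distance from the start of each locus. The first and second transcripts have equal exon lengths at both loci, and the third differs in its last exon, at 472 and 466 nt.

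A second pair shared part of its structure. XLOC_011804 on the plus strand and XLOC_012128 on the minus strand lay 42022 bp apart, and both were named after pus7l, a gene related to pseudouridine synthases. Their models opened with exons of 74 and 75 nt, separated by introns of 126 and 127 bp. The second introns measured 2329 and 2459 bp and the last exons 1253 and 1615 nt. Across the 468 zebrafish loci with models of 3 or more exons, 5 pairs of loci had equal lengths of the first and second exons. In 2 of the 5 both members lay on a single chromosome, and these were the pairs on chromosome 4. The pair XLOC_011765 and XLOC_011766 was already known to share these exon lengths, so its place among the 5 was fixed in advance. This search too was made after structures had been seen, so its counts do not measure how unusual the pairs are. Sequences of the models were not compared here, so whether these loci are copies was not tested.

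The remaining 21 loci outside the naming rule, 17 below and 4 above the boundary, had spliced lengths from 172 to 1895 nt with a median of 1050 nt, and spans from 277 to 95648 bp. Of these 21 loci, 9 are named above after their values or names had been seen.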

How the data were processed

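Ribosome footprints were sequenced in 8 embryo libraries, 1 per stage, but the values used here are those of a single deposited table of zebrafish transcript models, which belongs to no library. Its other values, exon positions counted from 1 on Zv9 (danRer7), are as the authors deposited them. Per the deposited description, linc- models are the lncRNAs of Ulitsky et al. and Zv9_ models those of Pauli et al., joined by further transcripts of the latter study and of RefSeq. How transcripts were grouped into loci was not stated. Per the submitters' processing notes, the tools were bedtools, Bowtie2 and TopHat2, with versions not given in the sources used here. The depth of the libraries is unknown, and the number of per-sample columns set aside was 0.

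Loci were placed by first base. Chromosome length was taken as the last locus end. Shares have exact binomial (Clopper-Pearson) 95% intervals and medians have intervals from order statistics, where at least 6 values existed; differences join both by square-and-add. The limit for a share of 0 is 3 counts. Interval code was tested on simulated data. No test gives a p-value.

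The members, lists and settings were chosen with earlier results of these data known. Named loci (42 of 63) were the first and last, those nearest 28 Mb, the 5 leading by length, span, exons and transcripts, close neighbours, loci of mixed source, those in bins of at most 3 loci and linc- loci above 28 Mb. Python 3.11.15, numpy 2.4.6, scipy 1.17.1 and matplotlib 3.10.9 were used.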

Additional observations from a re-analysis of the deposited data

How the results depend on the processing

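Of 88 alternatives to 20 results, 78 stayed within the 95% interval of the reported value (for densities, within 1.5 times). None turned a difference whose interval left out 0, the only kind for which a turn was counted. Many of the intervals are wide, so staying within one is a weak check. An alternative was also placed by its value alone, even where its own interval reached 0, as for the linc- share split at 30 Mb. With linc- models alone, chromosome 4 minus the other chromosomes gave -372.5 nt for spliced length, -2596 bp for span, -549.5 bp for the median intron and -3.09 points for 3 or more exons, and the share of chromosome 4 loci above 28 Mb was 29.2%. With Zv9_ models alone the intron difference was -2925 bp. The share of loci near another rose to 27.0% within 50 kb and to 36.5% within 100 kb, as a wider limit must give. The lowest density of a whole bin, 0.2 loci per Mb, was 0 with bins shifted by 2.5 Mb and 0.5 with bins of 10 Mb. The causes of the differences between sources were not tested. The 30 loci above 28 Mb, 7 of them with linc- models, limit every comparison of the sides. No paired analysis was possible because each stage had 1 library and no library values were used.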
